A study of Mus musculus with 9 samples.

Results

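Platelets are small blood cells without a nucleus that are shed by megakaryocytes and carry messenger RNA from them. In mice, megakaryocytes also sit in the lung and release platelets there, and platelets gather in lung vessels together with neutrophils during endotoxin injury. The 8 genes described here were chosen by symbol as genes of these cells, and they were 8 of the 32114 genes in the table. They encode the stored chemokines Pf4 and Ppbp, the fibrinogen receptor chains Itga2b and Itgb3, the von Willebrand factor receptor subunits Gp9 and Gp1bb, the collagen receptor Gp6 and the granule membrane receptor Treml1. Each symbol occurred once in the table, so no duplicate had to be dropped.

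The lungs came from 12-week-old mice in 3 groups of 3 libraries each. The LPS plus PD group received bacterial lipopolysaccharide (LPS, the endotoxin of Gram-negative bacteria) and breathed in PD as an aerosol of 10 mg/mL, and PD was taken to be panaxadiol, the compound in the title of the series. The LPS group received LPS without PD, and the dose in both LPS groups was 50 µg per mouse. The control group received sterile saline. The sources used here name no strain, no route of LPS and no time of sampling. They give 6 animals per group but do not tie the libraries to animals, so the p-values cover the spread among libraries, part of which may be technical.

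Values are FPKM, that is fragments per kilobase of transcript and per mapped fragments of the library, from libraries of polyadenylated RNA. Depth, recovered from the steps of the values, was 15.2 to 19.2 M reads per library. LPS replicate 2 stood apart, with a highest correlation of 0.914 to any other library over all tested genes, against at least 0.971 for each of the other 8. All 9 libraries had Xist at 0.0183 to 0.0895 FPKM and the Y-linked Ddx3y at 15.4 to 31.9 FPKM, which goes against the label female. Lung identity was plain, since the summed level of 8 epithelial markers was 20028 to 35092 FPKM in LPS plus PD, 8371 to 39931 FPKM in LPS and 37464 to 51104 FPKM in control. The 8371 FPKM was that of LPS replicate 2. In whole lung, fewer platelets or megakaryocytes and less RNA in each of them cannot be told apart.

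Across the 8 genes, the lungs of both LPS groups carried lower mean levels than control lungs of every gene except Itgb3, but no gene passed the test in any comparison. Over all genes tested, 60.1% had a lower mean log2 level in LPS than in control, and 58.2% did in LPS plus PD. The sum of the 8 genes was 57, 41.5 and 91.9 FPKM in LPS plus PD replicates 1 to 3 and 59, 37.9 and 97.7 FPKM in LPS replicates 1 to 3, against 97.2, 82.7 and 115 FPKM in control replicates 1 to 3. The ranges of all 3 groups overlapped, with replicate 3 of each LPS group inside the control range.

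Pf4 was the most abundant of the 8 genes in all 3 groups. It encodes platelet factor 4 (CXCL4), a heparin-binding chemokine of the alpha granules, and lies at chr5:90772435-90773383 on the plus strand (GRCm38, ENSMUSG00000029373). It had 30.1, 23.5 and 56.4 FPKM in LPS plus PD replicates 1 to 3 and 32.2, 15.7 and 54.1 FPKM in LPS replicates 1 to 3, against 44.4, 47.2 and 49.7 FPKM in control replicates 1 to 3. The controls lay close together, whereas both LPS groups had libraries on either side of all 3 controls. Mean levels were 36.6 ± 17.4 FPKM in LPS plus PD, 34 ± 19.3 FPKM in LPS and 47.1 ± 2.64 FPKM in control (SD, n = 3 each). The coefficient of variation of Pf4 was 47.5% in LPS plus PD and 56.7% in LPS, against 5.61% in control. Counting error alone would give 5.01%, 5.74% and 4.22% in these groups, so depth was not what limited the precision of Pf4 in the LPS groups.

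Ppbp encodes pro-platelet basic protein, the precursor of the neutrophil-attracting chemokine CXCL7. It lies beside Pf4 at chr5:90768518-90770063 on the plus strand (ENSMUSG00000029372), with 2371 bases between the pair. Its level was 6.45, 3.37 and 14.7 FPKM in LPS plus PD replicates 1 to 3 and 10.7, 7.94 and 17.1 FPKM in LPS replicates 1 to 3, against 23.1, 13.9 and 29.7 FPKM in control replicates 1 to 3. In each LPS group, replicate 3 exceeded control replicate 2 and the other libraries lay below all controls. Ppbp averaged 8.16 ± 5.84 FPKM in LPS plus PD, 11.9 ± 4.71 FPKM in LPS and 22.2 ± 7.94 FPKM in control (SD, n = 3 each). Relative to Pf4 in the same library, Ppbp stood at 0.214, 0.144 and 0.26 in LPS plus PD and at 0.331, 0.507 and 0.316 in LPS, against 0.52, 0.294 and 0.598 in control. The LPS plus PD ratios lay below those of all 6 other libraries, while the LPS and control ratios overlapped.

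**Figure D1:**
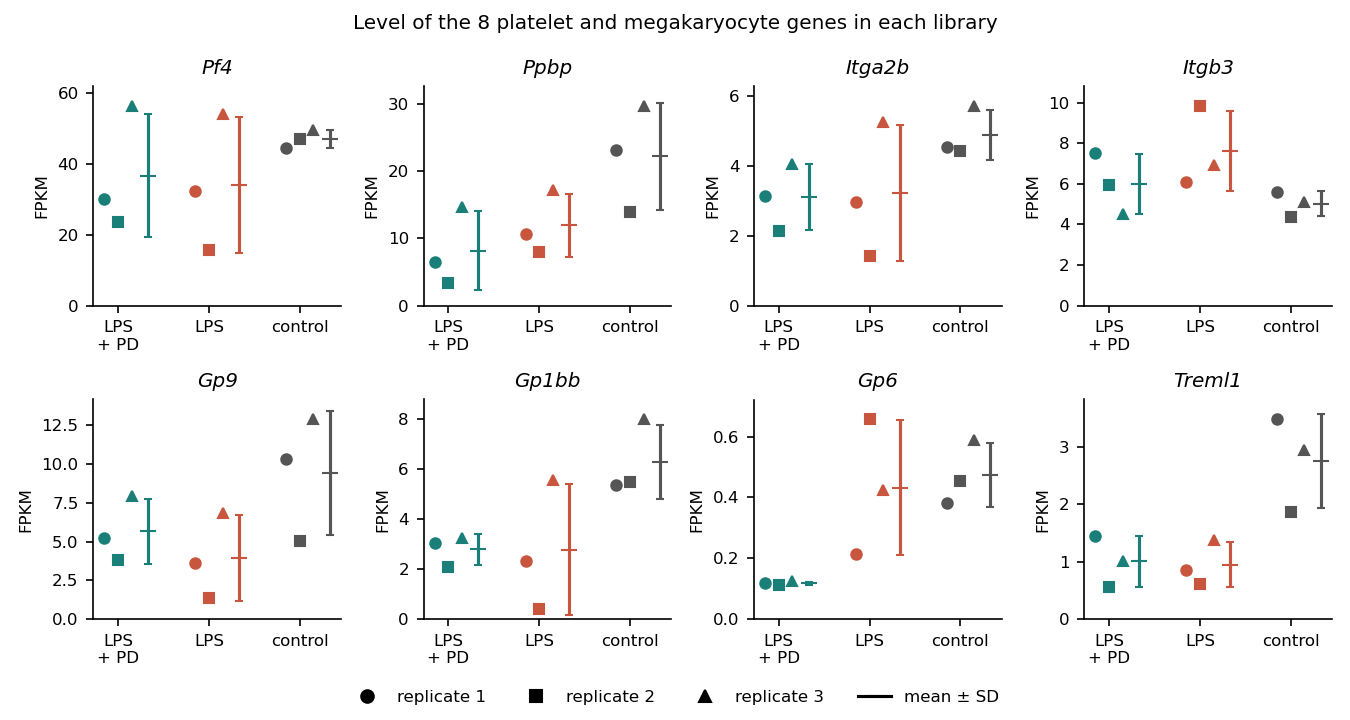
FPKM of each of the 8 genes in every library (points), with the group mean and SD (bars), for LPS plus PD, LPS and control with 3 libraries each, on axes that start at 0 and differ between genes. Every gene except Itgb3 has its highest mean in control, among them Ppbp, Gp9, Gp1bb and Treml1 at 22.2, 9.42, 6.28 and 2.76 FPKM. Itgb3 has its highest mean, 7.63 FPKM, in LPS.

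Itga2b encodes integrin alpha-IIb, which pairs with the beta-3 chain to form the fibrinogen receptor and is the more platelet-restricted of the pair. It lies at chr11:102453297-102470122 on the minus strand (ENSMUSG00000034664). Its level was 3.14, 2.14 and 4.05 FPKM in LPS plus PD replicates 1 to 3 and 2.98, 1.41 and 5.28 FPKM in LPS replicates 1 to 3, against 4.56, 4.42 and 5.73 FPKM in control replicates 1 to 3. All 3 LPS plus PD libraries lay below all controls, and LPS replicate 3 lay inside the control range. Means were 3.11 ± 0.955 FPKM in LPS plus PD, 3.22 ± 1.95 FPKM in LPS and 4.9 ± 0.715 FPKM in control (SD, n = 3 each).

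Itgb3 encodes integrin beta-3, which also pairs with integrin alpha-V on endothelial cells and macrophages. It lies at chr11:104608000-104670476 on the plus strand (ENSMUSG00000020689). It had 7.51, 5.96 and 4.54 FPKM in LPS plus PD replicates 1 to 3 and 6.11, 9.85 and 6.93 FPKM in LPS replicates 1 to 3, against 5.59, 4.39 and 5.12 FPKM in control replicates 1 to 3. The order was opposite to that of its partner, with every LPS library above every control and LPS replicate 2, the lowest library for Itga2b, the highest for Itgb3. Itgb3 averaged 6 ± 1.49 FPKM in LPS plus PD, 7.63 ± 1.96 FPKM in LPS and 5.03 ± 0.606 FPKM in control (SD, n = 3 each). The ratio of Itgb3 to Itga2b was 2.39, 2.78 and 1.12 in LPS plus PD and 2.05, 6.99 and 1.31 in LPS, against 1.23, 0.993 and 0.893 in control. All LPS ratios were above all control ratios, and LPS plus PD replicate 3 fell within the control range. The summed level of 12 monocyte and macrophage markers was 273 to 487 FPKM in LPS plus PD and 196 to 600 FPKM in LPS, against 167 to 200 FPKM in control. Lyve1 had the highest mean of the 12 in each group, with a wide spread in LPS plus PD (116 ± 113 FPKM). In LPS and control it averaged 75.2 ± 38.4 and 51.2 ± 13.4 FPKM (SD, n = 3 each). The LPS and control sums overlapped, and 0 of the 11 tested markers passed in any comparison. The sum of 11 endothelial markers was 1865 to 2034 FPKM in LPS plus PD, 896 to 2173 FPKM in LPS and 951 to 1736 FPKM in control. LPS replicate 2 held both the 600 FPKM of the monocyte and macrophage sums and the 896 FPKM of the endothelial sums. No marker of these 2 lists was at 0 in any library, and their part in the Itgb3 levels was not tested.

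**Figure D2:**
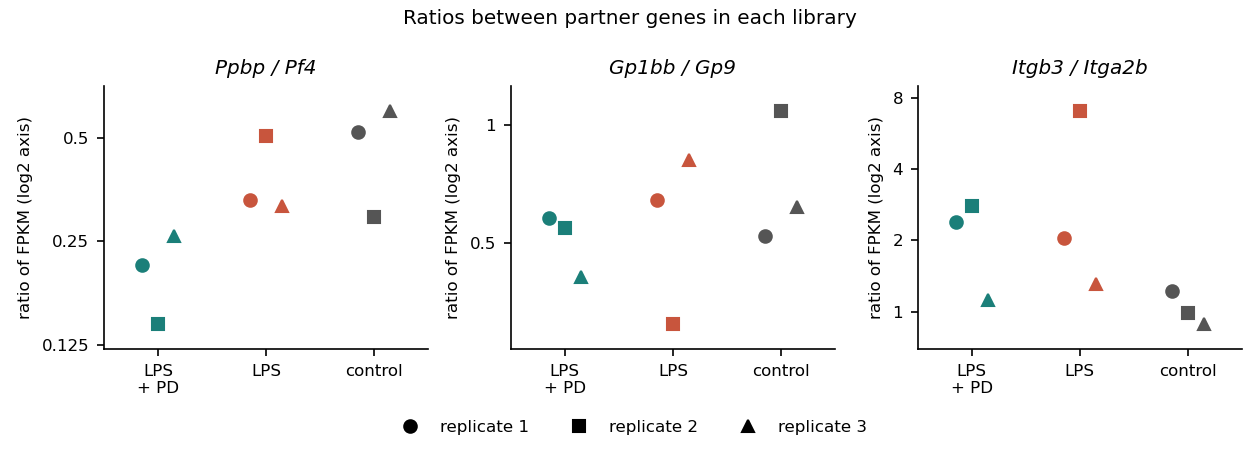
Ratio of FPKM between partner genes in each library (log2 axes), for Ppbp over Pf4, Gp1bb over Gp9 and Itgb3 over Itga2b, with 3 libraries each of LPS plus PD, LPS and control and a marker shape per replicate. Ppbp over Pf4 is 0.144 to 0.26 in LPS plus PD, below the other 6 libraries, and Itgb3 over Itga2b reaches 6.99 in LPS replicate 2.

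Gp9 and Gp1bb encode small subunits of the GPIb-IX-V complex, which tethers platelets to von Willebrand factor. Gp9 lies at chr6:87778072-87779768 on the plus strand (ENSMUSG00000030054). Its level was 5.24, 3.8 and 7.92 FPKM in LPS plus PD replicates 1 to 3 and 3.6, 1.34 and 6.88 FPKM in LPS replicates 1 to 3, against 10.3, 5.06 and 12.9 FPKM in control replicates 1 to 3. The ranges overlapped, since control replicate 2 lay below replicate 3 of each LPS group. Gp9 averaged 5.65 ± 2.09 FPKM in LPS plus PD, 3.94 ± 2.78 FPKM in LPS and 9.42 ± 3.99 FPKM in control (SD, n = 3 each).

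Gp1bb lies at chr16:18620319-18622403 on the minus strand (ENSMUSG00000050761). It had 3.04, 2.07 and 3.24 FPKM in LPS plus PD replicates 1 to 3 and 2.32, 0.419 and 5.58 FPKM in LPS replicates 1 to 3, against 5.37, 5.48 and 7.98 FPKM in control replicates 1 to 3. Every LPS plus PD library lay below every control, and the LPS libraries spread 13.3-fold. Means were 2.78 ± 0.626 FPKM in LPS plus PD, 2.77 ± 2.61 FPKM in LPS and 6.28 ± 1.48 FPKM in control (SD, n = 3 each). Its level is uncertain, because 1902 of its 2087 exonic bases also belong to Sept5 on the same strand and how shared reads were counted is not stated. Sept5, a septin named here because of that overlap, had 7.89, 6.66 and 6.88 FPKM in LPS plus PD replicates 1 to 3 and 9.12, 4.78 and 8.47 FPKM in LPS replicates 1 to 3, against 9.44, 12.2 and 8.06 FPKM in control replicates 1 to 3. The lowest library of both genes was LPS replicate 2.

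Gp6 encodes glycoprotein VI, the platelet receptor for collagen that signals through the Fc receptor gamma chain. It lies at chr7:4363965-4397744 on the minus strand (ENSMUSG00000078810) and was the least abundant of the 8 genes in every group. It had 0.117, 0.113 and 0.124 FPKM in LPS plus PD replicates 1 to 3 and 0.213, 0.657 and 0.425 FPKM in LPS replicates 1 to 3, against 0.382, 0.453 and 0.589 FPKM in control replicates 1 to 3. All 3 LPS plus PD libraries lay below all 6 others, and the LPS and control ranges overlapped. Among the 16227 genes with a mean of at least 0.5 FPKM, which leave out Gp6, 4.02% were lower without overlap in LPS plus PD than in LPS. Against control the share was 20.7%, and the share below all 6 others was not counted. The Gp6 levels rest on 12, 11 and 14 reads in LPS plus PD and 21, 59 and 43 reads in LPS, against 38, 42 and 60 reads in control. By exact Poisson 95% intervals, which cover counting error only, the LPS plus PD libraries had upper bounds of 0.205, 0.203 and 0.207 FPKM. The lowest lower bound in control was 0.271 FPKM, above all 3 of these, whereas that of LPS replicate 1 was 0.132 FPKM.

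Treml1 encodes TLT-1, a receptor held in platelet alpha granules that reaches the surface on activation. It lies at chr17:48359916-48367176 on the plus strand (ENSMUSG00000023993). Its level was 1.44, 0.564 and 1 FPKM in LPS plus PD replicates 1 to 3 and 0.854, 0.609 and 1.37 FPKM in LPS replicates 1 to 3, against 3.47, 1.86 and 2.93 FPKM in control replicates 1 to 3. Every library of both LPS groups lay below every control, which held for no other gene of the 8. Over all genes tested, 23.8% were lower than control without overlap in LPS and 20.7% in LPS plus PD. The share that was lower in both was not counted. Treml1 averaged 1 ± 0.438 FPKM in LPS plus PD, 0.945 ± 0.389 FPKM in LPS and 2.76 ± 0.82 FPKM in control (SD, n = 3 each). The counts behind it were 35, 13 and 27 reads in LPS plus PD and 20, 13 and 33 reads in LPS, against 82, 41 and 71 reads in control.

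By mean FPKM, the order in LPS plus PD was Pf4, Ppbp, Itgb3, Gp9, Itga2b, Gp1bb, Treml1 and Gp6, and the order in LPS was the same. In control, Gp9 and Gp1bb stood above Itgb3 and Itga2b. Neighbours in the order whose libraries did not overlap were Pf4 and Ppbp, Gp1bb and Treml1, and Treml1 and Gp6 in LPS plus PD. In control they were Pf4 and Ppbp, Ppbp and Gp9, Itga2b and Treml1, and Treml1 and Gp6, whereas in LPS every pair of neighbours overlapped.

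For LPS against control, the comparison that asks what LPS alone did, 0 of the 7 tested genes passed limma's test at an adjusted p of 0.05, where 3.78% of all 16227 genes tested passed. Gp6, at a mean of 0.342 FPKM, was under the filter of 0.5 FPKM and was not in this fit. Differences are of log2(FPKM + 1), which understates the change of low genes, with 95% intervals that are not adjusted for the number of genes. Treml1 came nearest, at a log2 difference of -0.94 ± 0.24 (SE, interval -1.48 to -0.41, limma adjusted p = 0.0582), and its mean FPKM was 34.3% of control. Gp1bb stood at -1.19 ± 0.47 (SE, interval -2.25 to -0.13, limma adjusted p = 0.134) and Gp9 at -1.16 ± 0.46 (SE, interval -2.22 to -0.11, limma adjusted p = 0.139). The intervals of these 3 lay below 0 and that of Itgb3 above it, at 0.50 ± 0.21 (SE, interval 0.03 to 0.97, limma adjusted p = 0.15). Those 4 genes had an unadjusted p under 0.05, as had 29.9% of all genes tested. Limma voom on the recovered reads, which tested all 8 genes, called 0 of them in each of the 3 comparisons.

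The intervals of the 3 other tested genes included 0. Ppbp was at -0.85 ± 0.47, Pf4 at -0.62 ± 0.43 and Itga2b at -0.58 ± 0.32 on the log2 scale (SE, limma adjusted p of 0.25, 0.348 and 0.248). Of the 7 genes, Treml1 was lower without overlap, where 23.8% of all genes were, and Itgb3 was higher without overlap, where 13.8% were. The median difference of the 7 genes was -0.85, beside -0.11 over all genes tested, and 6 of 7 were negative, where 60.1% of all genes were. With every library scaled to equal FPKM totals these medians were -0.66 and 0.04. Without LPS replicate 3 the count of genes past the threshold was 2, Gp1bb and Treml1, while that over all genes was 1038. With limma's array weights, which let single libraries count less, it was 3 (Gp1bb, Treml1 and Gp9), but 3308 of all genes then passed. Leaving out that library moved the Gp1bb difference to -1.73 and that of Pf4 to -1.03, and leaving out LPS replicate 2 instead moved them to -0.62 and -0.17.

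**Figure D3:**
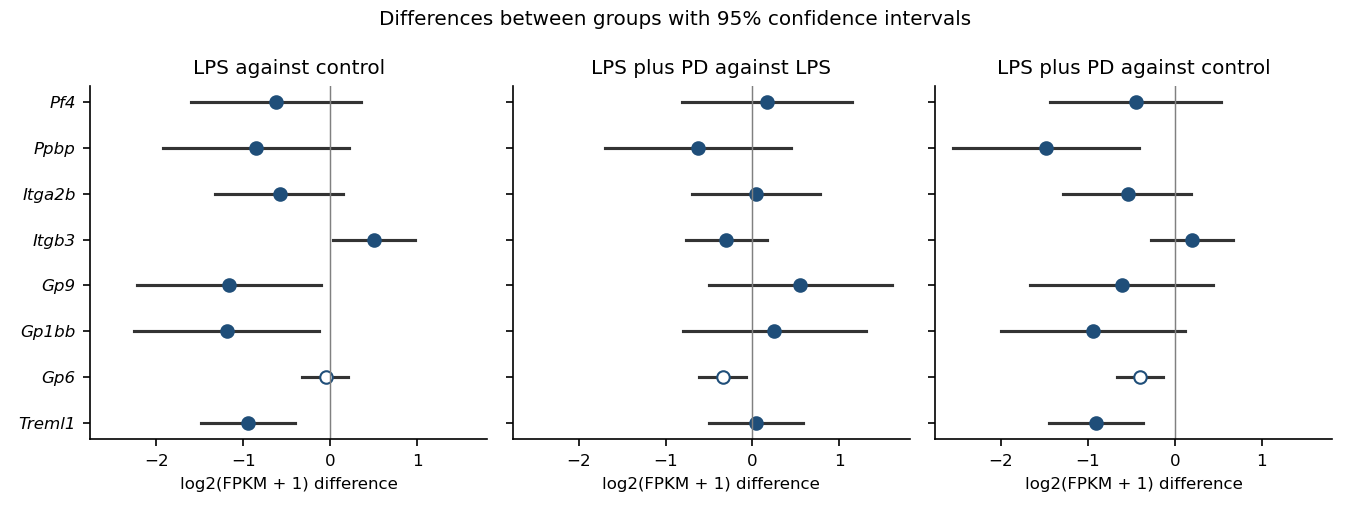
Difference in log2(FPKM + 1) of each gene (points) with its 95% interval (bars) in the comparisons LPS against control, LPS plus PD against LPS and LPS plus PD against control, where Gp6 comes from the fit without a filter. Treml1 lies at -0.94 and -0.91 in the comparisons with control and at 0.04 between LPS plus PD and LPS.

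Between LPS plus PD and LPS, the comparison that asks what inhaled PD added, 0 of the 7 tested genes passed, and 0% of all genes did (limma, with 653 genes at an unadjusted p under 0.05, or 4.02%, none of them among the 7; voom on recovered reads also called 0 genes). The median difference of the 7 genes was 0.04, beside 0.03 over all genes, and 2 of the 7 were negative, where 43.9% of all genes were. Ppbp was at -0.63 ± 0.47, Gp9 at 0.55 ± 0.46 and Itgb3 at -0.30 ± 0.21 on the log2 scale (SE, limma adjusted p = 0.866 each). Pf4 was at 0.17 ± 0.43, Gp1bb at 0.25 ± 0.47, Itga2b at 0.04 ± 0.32 and Treml1 at 0.04 ± 0.24 (SE, limma adjusted p of 0.944, 0.92, 0.983 and 0.98). The signs of these last 4 were not stable. Without LPS replicate 2 the differences were -0.28 for Pf4, -0.32 for Gp1bb, -0.31 for Itga2b and -0.09 for Treml1. Without LPS plus PD replicate 3 they were -0.18 for Pf4 and -0.12 for Itga2b, and without LPS plus PD replicate 1 that of Treml1 was -0.12.

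Gp6 was the only one of the 8 genes whose LPS plus PD and LPS libraries did not overlap. Of the 16227 genes tested, which leave out Gp6, 4.02% were lower and 3.99% higher without overlap. The mean FPKM of Gp6 in LPS plus PD was 27.4% of that in LPS. In the fit without a filter its log2 difference was -0.34 ± 0.11 (SE, unadjusted p = 0.0163, limma adjusted p = 0.9). On recovered reads, where no pseudocount of 1 FPKM compresses it, limma voom gave -1.67 ± 0.50 (SE, unadjusted p = 0.00765, adjusted p = 0.858).

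For LPS plus PD against control, 0 of the 7 tested genes passed, where 0.789% of all genes did. Ppbp had the most negative difference, at -1.48 ± 0.47 (SE, interval -2.55 to -0.41, limma adjusted p = 0.154), with a mean FPKM of 36.7% of control. Treml1 was at -0.91 ± 0.24 (SE, interval -1.45 to -0.37, limma adjusted p = 0.108), or 36.4% of the control mean. Gp1bb, at 44.3% of the control mean, was at -0.94 ± 0.47 (SE, limma adjusted p = 0.309). Only Ppbp and Treml1 of the 7 had an unadjusted p under 0.05, as had 19.2% of all genes.

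Gp9 was at -0.61, Itga2b at -0.54, Pf4 at -0.45 and Itgb3 at 0.20 on the log2 scale in that comparison (limma adjusted p of 0.496, 0.39, 0.598 and 0.633). Itga2b, Gp1bb and Treml1 of the 7 were lower without overlap, where 20.7% of all genes were, and 0 were higher without overlap, where 13.3% were. Gp6 was also lower without overlap, at 24.9% of the control mean and at -0.40 ± 0.11 in the fit without a filter (SE, limma adjusted p = 0.218). Its voom difference on recovered reads was -1.95 ± 0.49 (SE, adjusted p = 0.099). The median of the 7 genes was -0.61, beside -0.07 over all genes, and 6 of 7 were negative, where 58.2% of all genes were. The count of genes past the threshold was 1, Treml1, without LPS replicate 2, a library outside this comparison that enters the shared spread, and 1613 of all genes passed in that fit. It was 2 with array weights (Treml1 and Ppbp), where 1568 of all genes passed, and 1 with only the 6 libraries compared (Gp1bb), where 1193 did. The comparisons with control share the control libraries and are given side by side.

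**Figure D4:**
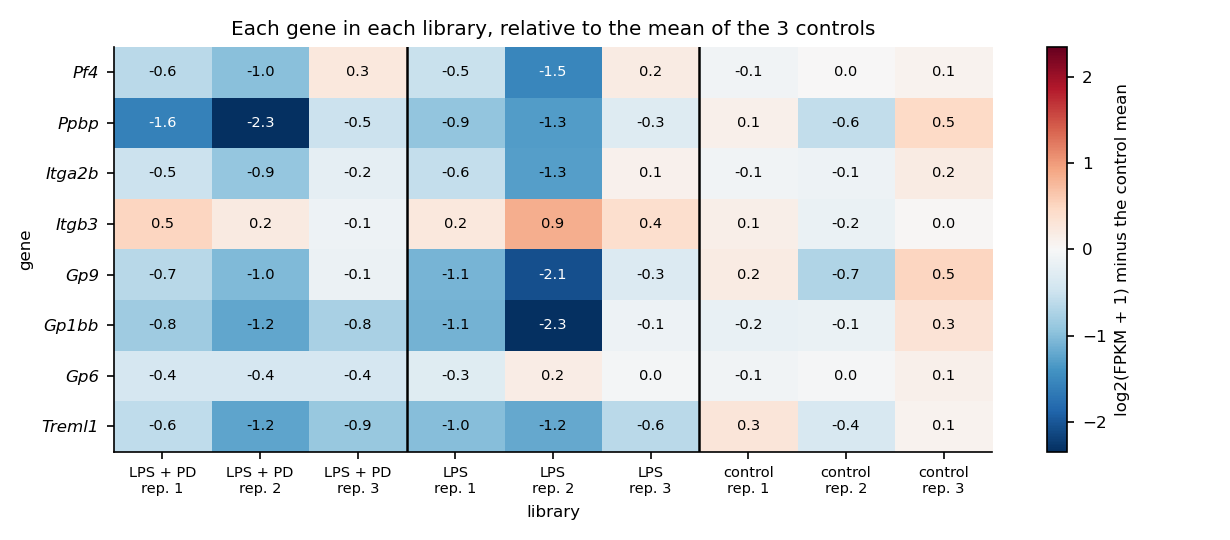
log2(FPKM + 1) of each gene in each library minus the mean of the 3 controls, with LPS plus PD, LPS and control libraries from left to right. In LPS replicate 2, Pf4, Ppbp, Itga2b, Gp9, Gp1bb and Treml1 are all below the control mean while Itgb3 is above it.

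The 6 genes Pf4, Ppbp, Itga2b, Gp9, Gp1bb and Treml1 ranked the libraries of the LPS groups in nearly the same order. Within LPS, all 6 were highest in replicate 3 and lowest in replicate 2. In LPS plus PD, all 6 were lowest in replicate 2, and 5 of them were highest in replicate 3, with Treml1 highest in replicate 1. The order was less uniform in control, where Pf4 and Gp1bb were lowest in replicate 1, the other 4 were lowest in replicate 2, and Treml1 alone was highest in replicate 1. Pearson's r of each gene with the mean of the other 7, over 9 libraries, was 0.89 for Ppbp and Itga2b, 0.85 for Treml1, 0.84 for Gp1bb, 0.79 for Gp9 and 0.72 for Pf4. Itgb3 was at -0.59 and Gp6 at 0.26, so these 2 did not follow the rest. After the group means were removed the values ran from 0.73 for Pf4 to 0.90 for Gp9 among the 6, and were -0.42 for Itgb3 and -0.21 for Gp6. Levels from 1 library share its depth and its tissue piece, so these correlations are descriptive.

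Of 16220 other genes, 56 had r of at least 0.9 with the mean scaled level of the 8 genes over the 9 libraries. The 8 most alike were Ier5l and Rpl7a (r of 0.97), Lef1 and Pyroxd2 (0.96), and Eftud2, Trim7, 2700097O09Rik and Homez (0.95). Rpl7a, a protein of the large ribosomal subunit, ran from 27.3 to 105 FPKM over the libraries, and Lef1, a transcription factor of the Wnt pathway, from 0.325 to 1.28 FPKM. None of the 8 is in a platelet list used here. Among platelet list genes, the most alike were the thromboxane receptor Tbxa2r (0.89), the von Willebrand factor-binding subunit Gp1ba (0.88), the integrin activator Rasgrp2 (0.87) and the lipoxygenase Alox12 (0.83), all chosen after their values were seen. Of the 53 tested genes in the platelet and megakaryocyte lists, 28 had an r above 0 and 25 an r below 0, down to -0.65 for the cytoskeletal linker Tln1.

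Promoter sequences of the following 4 genes are shown because Pf4 and Ppbp are neighbours, Itga2b holds 2 ETS matches and Gp9 alone holds both motifs of megakaryocyte factors. GATA1 and ETS factors such as FLI1 are known to drive megakaryocyte genes. Each line is the 150 bases before the RefSeq start (GRCm38.p6), 5′ to 3′ on the gene's strand, with capitals for the GATA motif (GATAA), the ETS motif (AGGAAG) and the TATA motif (TATAAA) on either strand. The stretches are chr5:90772285-90772434 (plus) for Pf4, chr5:90768368-90768517 (plus) for Ppbp, chr11:102469884-102470033 (minus) for Itga2b and chr6:87777920-87778069 (plus) for Gp9. The Itga2b stretch lies inside the gene as placed above, because the RefSeq start is downstream of the gene's 5′ end at 102470122. Its ETS matches thus fall within the annotated gene.
Pf4: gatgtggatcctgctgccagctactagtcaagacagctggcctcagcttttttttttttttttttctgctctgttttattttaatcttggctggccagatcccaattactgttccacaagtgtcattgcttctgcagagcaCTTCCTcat
Ppbp: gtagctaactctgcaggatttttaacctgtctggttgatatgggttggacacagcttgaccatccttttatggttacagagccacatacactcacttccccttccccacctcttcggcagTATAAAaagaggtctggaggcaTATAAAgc
Itga2b: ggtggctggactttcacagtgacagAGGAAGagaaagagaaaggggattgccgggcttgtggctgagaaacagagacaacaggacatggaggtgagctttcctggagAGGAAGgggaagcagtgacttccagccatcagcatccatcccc
Gp9: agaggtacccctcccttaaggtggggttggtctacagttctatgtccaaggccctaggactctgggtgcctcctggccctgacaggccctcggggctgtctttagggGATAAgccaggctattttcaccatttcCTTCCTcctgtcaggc

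RefSeq promoters were at hand for 7 of the 8 genes, the exception being Itgb3. In the 250 bases before the start, the ETS motif AGGAAG occurred in 3 of 7 genes (Pf4, Itga2b and Gp9), as in 29.5% of 32851 promoters of the same length. The GATA motif GATAA occurred in 2 of 7 (Gp9 and Gp6), as in 22.6% of promoters, and Gp9 held both, as did 6.58%. The TATA motif TATAAA occurred in Ppbp alone, at 30 and 8 bases before the start, and in 12.4% of promoters. No match overlapped another. These are matches of letters and no measure of binding.

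Of 11 partners of the adhesion receptors 0 passed in any comparison, and their median log2 difference from control was -0.12 in LPS plus PD and -0.18 in LPS. The highest of them in level were Itgb1, the beta-1 integrin chain, at 307 ± 36.5 FPKM in LPS plus PD, 326 ± 51.1 FPKM in LPS and 241 ± 51.9 FPKM in control, and the tetraspanin Cd9 at 190 ± 44.5, 190 ± 52.9 and 251 ± 7.47 FPKM in these groups (SD, n = 3 each). Both are also made by many other lung cells. The other subunits of the von Willebrand factor receptor, Gp1ba and Gp5, were chosen after their values were seen. Gp1ba had 0.637, 0.403 and 0.537 FPKM in LPS plus PD replicates 1 to 3 and 0.639, 0.387 and 0.708 FPKM in LPS replicates 1 to 3, against 1.07, 0.679 and 0.874 FPKM in control replicates 1 to 3. Gp5 had 0.998, 1.52 and 1.42 FPKM in LPS plus PD and 3.27, 0.419 and 2.34 FPKM in LPS, against 3.14, 4.15 and 3.77 FPKM in control. In LPS plus PD, Gp1ba, Gp5, Cd9, Mpig6b and Cd226 lay below control in every library, where 20.7% of all genes did. By mean log2 level, 6 of the 11 were lower than control there and 5 higher. Mpig6b, chosen after its values were seen, was also below control in every LPS library. It averaged 0.542 ± 0.107 FPKM in LPS plus PD, 0.722 ± 0.341 FPKM in LPS and 1.81 ± 0.617 FPKM in control (SD, n = 3 each). Others of the 11, also chosen after their values were seen, did not follow these genes. The podoplanin receptor Clec1b averaged 8.52 ± 3.75 FPKM in LPS plus PD, 8.54 ± 4.85 FPKM in LPS and 7.21 ± 1.23 FPKM in control (SD, n = 3 each). Fcer1g, the Fc receptor gamma chain that myeloid cells also make, averaged 91.9 ± 27.7 FPKM in LPS plus PD, 212 ± 257 FPKM in LPS and 23 ± 5.29 FPKM in control (SD, n = 3 each).

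Of 8 receptors for platelet agonists and inhibitors 0 passed in any comparison. Tbxa2r, the thromboxane receptor, averaged 5.09 ± 1.26 FPKM in LPS plus PD, 4.98 ± 3.85 FPKM in LPS and 8.29 ± 1.85 FPKM in control. Ptgir, the prostacyclin receptor that restrains platelets, averaged 3.22 ± 1.35, 3.82 ± 0.853 and 1.69 ± 0.754 FPKM in these groups (SD, n = 3 each). By group mean the pair stood on opposite sides of control, at log2 differences in LPS of -0.82 ± 0.42 for Tbxa2r and 0.87 ± 0.27 for Ptgir (SE, limma adjusted p of 0.217 and 0.0895). Tbxa2r overlapped between LPS and control, with 9.23 FPKM in LPS replicate 3, and Ptgir was higher in LPS without overlap, as were 13.8% of all genes. In LPS plus PD, Ptgir overlapped control and Tbxa2r was lower without overlap, as were 20.7% of all genes.

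Of 12 genes of integrin activation and receptor signalling 1 rose in LPS, Rap1b, the small GTPase that switches platelet integrins on and is made by most cells. It averaged 194 ± 41.6 FPKM in LPS and 101 ± 16.6 FPKM in control (SD, n = 3 each), a log2 difference of 0.93 ± 0.20 (SE, limma adjusted p = 0.0441). Of 15 genes of granule cargo and eicosanoid synthesis 1 fell, Clu, the chaperone clusterin, at 41.1 ± 10.3 FPKM in LPS and 105 ± 23.4 FPKM in control (log2 difference -1.34 ± 0.22, SE, limma adjusted p = 0.0304). Its control mean was above the 47.1 FPKM of Pf4, and which lung cells made it was not tested. Of 11 megakaryocyte factors and thrombopoietin axis genes 7 were tested and 1 rose, Nfe2, a factor of platelet release that neutrophils also make, at 5.96 ± 1.63 FPKM in LPS and 2.22 ± 0.25 FPKM in control (log2 difference 1.09 ± 0.20, SE, limma adjusted p = 0.0367). Over all 16227 genes tested, 200 rose and 413 fell in LPS. The median differences of these 3 lists in LPS were 0.75, 0.54 and 0.08, beside -0.11 for all genes. The call of Rap1b held only without LPS replicate 3 of the 9 fits that left out a library, and its differences ran from 0.76 to 1.04. Nfe2 kept its call without any 1 LPS library and lost it without any 1 library of LPS plus PD or control (0.91 to 1.24). Clu lost it without LPS plus PD replicates 1 or 3, LPS replicate 1 or control replicates 1 or 2 (-1.52 to -1.20). The sum of 10 neutrophil markers was 1288 to 3961 FPKM in LPS plus PD and 1236 to 4487 FPKM in LPS, against 103 to 367 FPKM in control. LPS replicate 2 held the 4487 FPKM. Of the 8 tested neutrophil markers 7 rose in LPS, and 1 marker was at 0 in a control library. The part of neutrophils in these 3 calls was not tested.

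Around Pf4 and Ppbp on chromosome 5, the order along the plus strand was Cxcl5, Ppbp, Pf4, Cxcl3, Cxcl15, Cxcl1 and Cxcl2, all on the same strand. Of these 5 other chemokines 3 rose in LPS, the neutrophil attractants Cxcl1, Cxcl2 and Cxcl3, where 200 of all 16227 genes tested rose. Cxcl3, the next gene after Pf4, had 8.08, 10.2 and 6.28 FPKM in LPS replicates 1 to 3, against 0.17, 0.146 and 0.248 FPKM in control replicates 1 to 3, with no overlap (log2 difference 2.93 ± 0.39, SE, limma adjusted p = 0.0221). Its level in LPS plus PD was 11.6, 2.8 and 9.01 FPKM, and it rose there too against control (2.72 ± 0.39, SE, limma adjusted p = 0.0313). Cxcl1 and Cxcl2 differed by 3.59 ± 0.80 and 3.99 ± 0.84 in LPS (SE, limma adjusted p of 0.048 and 0.0441). Cxcl1 and Cxcl2 were called in the fits without LPS replicate 2 or 3 and in none of the other 7 fits that left out a library, with differences of 2.60 to 4.09 and 2.82 to 4.58. Cxcl3 lost its LPS call without control replicates 1 or 2 (2.78 to 3.09). Its LPS plus PD call was lost without LPS plus PD replicates 1 or 3 or any 1 control (2.38 to 3.24).

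**Figure D5:**
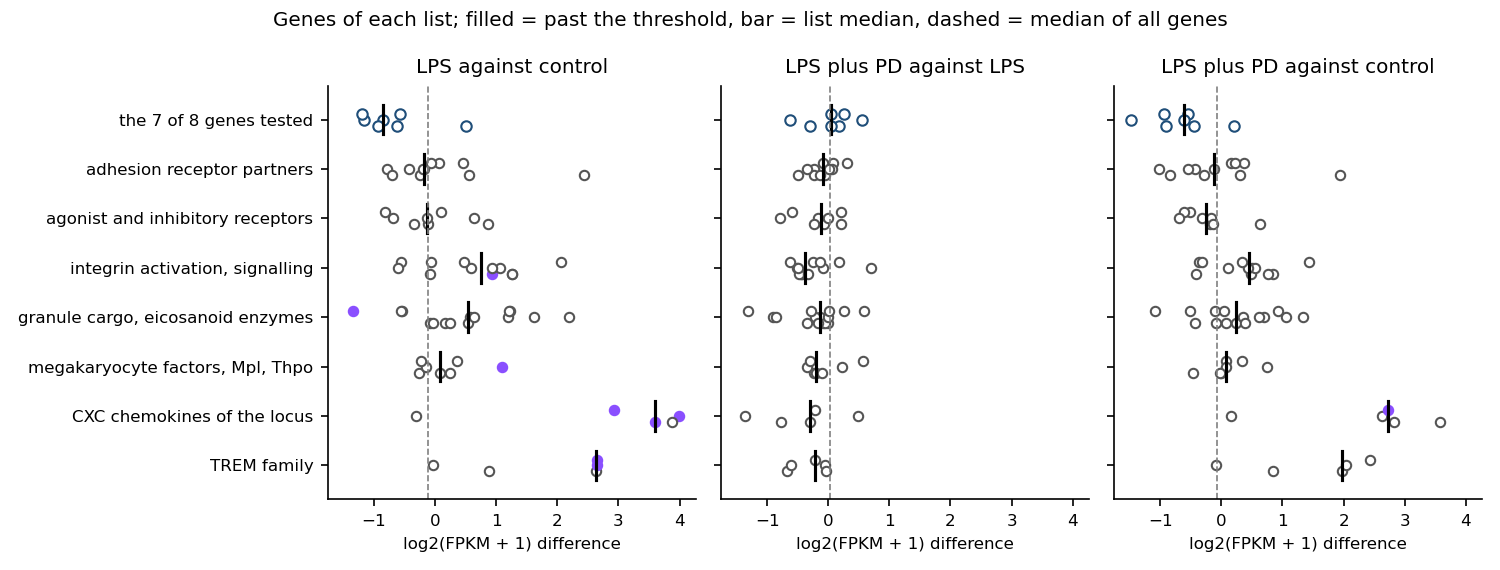
Difference in log2(FPKM + 1) of the 7 tested genes and of the genes of each platelet, chemokine and TREM list (points, filled where limma's adjusted p was under 0.05), with the list median (bar) and the median of all genes (dashed line), in the 3 comparisons. The medians in LPS against control are -0.85 for the 7 genes and 3.59 for the chemokines of the Pf4 and Ppbp locus.

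Treml1 stands at the end of the TREM cluster of chromosome 17, after Trem1, Trem3, Treml4, Treml2 and Trem2. Of these 5 myeloid receptor genes 2 rose in LPS, where 200 of all 16227 genes tested rose. Trem3 had a log2 difference of 2.65 ± 0.58 and Treml4 one of 2.65 ± 0.57 (SE, limma adjusted p of 0.0467 and 0.0445). Trem3 averaged 14 ± 13.9 FPKM in LPS and 0.954 ± 0.916 FPKM in control, and Treml4 17.7 ± 18.1 FPKM in LPS and 1.21 ± 0.366 FPKM in control (SD, n = 3 each). Without LPS replicate 2 or 3 Trem3 kept its call and in the other 7 such fits it did not (1.93 to 3.06), whereas Treml4 was called without any 1 LPS library and in none of the other 6 (1.89 to 3.17). None of the 5 passed between LPS plus PD and LPS or between LPS plus PD and control.

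Markers of other cells were summed in the same libraries. The sum of 11 erythroid markers was 2977 to 11064 FPKM in LPS plus PD, 2175 to 11786 FPKM in LPS and 4043 to 11538 FPKM in control, and 0 of its 8 tested genes passed in any comparison. Mast cell and basophil markers summed to 31.8 to 48.3 FPKM in LPS plus PD, 21.7 to 37 FPKM in LPS and 19.8 to 38.4 FPKM in control, with up to 2 of their 8 genes at 0 in a library. These sums were mostly Kit, at means of 34.2, 24 and 25.2 FPKM in these groups. No other gene of that list averaged above 1.55 FPKM in any group. Heart muscle markers, which a lung piece can carry, summed to 159 to 236 FPKM in LPS plus PD and 89.3 to 147 FPKM in LPS, against 247 to 918 FPKM in control. Of the 7 heart muscle markers 6 fell in LPS, where 413 of all 16227 genes tested fell. Their part, like that of the neutrophil markers, in the levels of the 8 genes was not tested.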

How the data were processed

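RNA-seq of mouse lung gave 1 table of FPKM for 32114 genes and 9 libraries, as deposited by the authors. The genome was GRCm38 and the tools were HISAT2, StringTie, bcl2fastq and FastQC, per the submitters' processing notes. Tool versions, strandedness and the handling of shared reads are not stated. Gene positions came from GENCODE M21, which held 32025 of the IDs. The values moved in steps that gave whole reads (among values under 100 reads, 97.2% to 97.5% came within 0.05 of a whole number), from which depth and reads per gene were recovered; the reads of Gp1bb were not all whole.

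log2(FPKM + 1) of the 16227 genes with a mean of at least 0.5 FPKM was fitted in limma 3.58.1 (R 4.3.3) with 1 mean per group, all 9 libraries and a variance trend, with Benjamini-Hochberg adjustment over all genes and a threshold of 0.05. The step was tested on simulated data. Intervals and likeness were computed in Python 3.11.15 and R. The fit was repeated without a filter, at a filter of 5 FPKM, with a pseudocount of 0.1 or 0.01, with median-ratio, quantile or total scaling, without a trend, with array weights, with only the 6 libraries compared, with a replicate block, without each library in turn and, chosen after seeing the data, voom on recovered reads. Named were the 8 genes, the genes past the threshold in each list (up to 4, or else the 2 highest in level) and the 8 most alike genes. The members and lists were chosen with earlier results of these data known.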

Additional observations from a re-analysis of the deposited data

How the results depend on the processing

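The 7 tested genes kept 1 positive and 6 negative differences from control under every alternative, in LPS and in LPS plus PD, except that a filter of 5 FPKM left 1 positive and 3 negative genes tested. With array weights 3 of them passed in LPS (Gp1bb, Treml1 and Gp9) and 2 in LPS plus PD against control (Treml1 and Ppbp), and with only the 6 libraries compared 1 passed there (Gp1bb). Leaving out 1 library gave 0 to 2 and 0 to 1 passing genes in these comparisons. Over all genes, the 613 calls in LPS against control became 38 without a filter, 270 at a filter of 5 FPKM, 370 with median-ratio scaling, 392 with equal totals, 3308 with array weights, 9 with the 6 libraries compared and 7 to 1038 with a library left out. The 128 calls in LPS plus PD against control became 6 without a filter, 1568 with array weights, 1193 with the 6 libraries and 2 to 1613 with a library left out. Scaling also moved their split, in LPS against control with 200 higher and 413 lower calls to 160 and 210 with median-ratio scaling and 204 and 188 with equal totals, and in LPS plus PD against control with 61 and 67 to 81 and 54 and to 87 and 44. Between LPS plus PD and LPS there were 1, 1 and 2 calls with median-ratio scaling, quantile normalization and array weights, and 0 with any library left out. The sign turned between LPS plus PD and LPS for Pf4 (-0.01 with array weights, -0.18 without LPS plus PD replicate 3, -0.28 without LPS replicate 2, highest 0.58 without LPS replicate 3), Itga2b (-0.00 with quantile normalization, -0.04 with array weights, -0.12, -0.31 and 0.38 without those 3 libraries), Gp1bb (-0.32 and 0.79 without LPS replicates 2 and 3) and Treml1 (-0.01 with quantile normalization, -0.12 and 0.20 without LPS plus PD replicates 1 and 2, -0.09 without LPS replicate 2). Of the 9 calls of list genes, 0 were kept without a filter, 2 with the 6 libraries compared, 4 with median-ratio scaling, 5 with voom and 6 at a filter of 5 FPKM. Apart from fewer genes or libraries, the cause was not tested. Over all genes the replicate numbers showed no common pairing (1 of 9 same-number pairs correlated above 0.1, from -0.18 to 0.19). Replicate 3 was highest for 6 of the 8 genes in each group, and a pairing of some genes only was not tested. With the replicate block 10 genes passed in LPS against control and 4 in LPS plus PD against control, with 0 of the 7 and 0 of the 9 list calls. At an unadjusted limma p under 0.05, the block gave 5 of the 7 genes in LPS against control, where the main fit gave 4. It gave 2 between LPS plus PD and LPS (main fit 0) and 5 in LPS plus PD against control (main fit 2). Gp6, Treml1 and, in LPS replicate 2, Gp9 and Gp1bb rest on few reads, which limits their precision.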
